A study of Mus musculus with 8 samples.

Results

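Glycolysis is described here through Slc2a1, the gene of the glucose transporter GLUT1, and 9 genes of its enzymes: Hk2, Pfkl, Pfkp, Aldoa, Tpi1, Pgk1, Pgam1, Eno1 and Ldha. These 10 genes were chosen by name and not by a threshold on these data, but with earlier results of these data known. Each had a row among the 23478 gene symbols of both count tables. RNA sequencing was done on 8 libraries of mouse embryos at E13.5. The sorted cells came from tracheas of Bmp4flox/flox embryos that all carried the γSMAeGFP reporter of smooth muscle. The 2 mutant libraries also carried a Cre recombinase, and the 3 control libraries had none. Cells were sorted as negative for EPCAM and for GFP, to leave out epithelium and muscle, and the labels call them chondroblasts. All whole tracheas were Wls flox/flox, the 1 mutant library with ShhCre+ and the 2 control libraries without Cre. Shh-Cre acts in the airway epithelium, so that Wls, which is needed for the secretion of Wnt proteins, is deleted there. The labels do not state whether libraries came from separate embryos, litters or pools, so p-values measure only the spread between libraries, which may be technical.

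Glycolysis splits glucose into pyruvate in the cytosol, and yields ATP without oxygen when lactate dehydrogenase turns the pyruvate into lactate. Hexokinase and phosphofructokinase catalyse the steps at which the flow is controlled, and the enzymes from aldolase to enolase work on the smaller sugars near equilibrium. Growth plate cartilage has no blood vessels and is known to rely on this pathway. Many of its genes are targets of the hypoxia-inducible factor HIF-1, which binds DNA with the core letters ACGTG or GCGTG, and of Myc.

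The Bmp4 mutants held 12964287 and 15462780 counts, their controls 48876948 to 55492747, and the tracheas 24596836 to 31399982. The 2 Bmp4 mutant libraries stood apart from all others. They had 919 and 955 genes with 0 counts, against 5573 to 6080 in their controls, and 10.9% and 8.44% of their counts were estimated as a background spread over genes in proportion to exon length, from 4157 genes with 0 counts in every control. Globin took 12.3% of the counts in mutant 1, 0.111% in mutant 2 and 0.000476% to 0.960% in the controls. Levels are therefore given as rescaled CPM, counts divided by a library size that rests on reference genes, those with at least 10 CPM in every control (9646 genes in the sorted cells, 10174 in the tracheas). All 10 genes were reference genes in both tables, with counts of 487 to 109096 in the sorted cells and 345 to 35420 in the tracheas. The targeted genes followed the labels. Bmp4 stood at 31.3 and 38.1 rescaled CPM in its mutants against 94.0 to 115 in the controls (log2 fold change -1.63 ± 0.17 (SE), edgeR adjusted p = 0.00252), and Wls at 66.1 in its mutant against 147 and 153 (-1.18 ± 0.18, edgeR adjusted p = 3.72e-05).

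In the sorted Bmp4 mutant cells, 7 of the 10 genes fell, 1 rose and 2 did not pass the test. Lactate dehydrogenase A, enolase 1 and the liver-type phosphofructokinase fell furthest, to 50.5%, 52.6% and 56.6% of the control mean. The platelet-type phosphofructokinase Pfkp rose to 242%. A call is an adjusted p under 0.05 (edgeR's quasi-likelihood test, Benjamini-Hochberg over all 21665 genes tested). By that rule 3.42% of all genes tested were called lower and 45.7% higher, or 7.55% lower and 10.3% higher among the reference genes. With TMM scaling over all genes, 15.6% were called lower and 39.3% higher, and 9 of the 10 were called lower and Pfkp higher. Both mutant libraries lay below every control for 9 of the 10 genes and above every control for Pfkp, against 22.2% and 23.3% of the reference genes. The median log2 fold change of the 10 genes was -0.55, beside 0.01 over the reference genes, whose 5th and 95th percentiles were -0.60 and 0.94, and 0.93 over all genes tested. Summed over the 10 genes, the level was 2955 and 3090 rescaled CPM in the mutants and 4866 to 5317 in the controls. In bulk RNA, fewer cells that express these genes and less RNA of them per cell cannot be told apart.

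The estimated background was 0 in the controls by its definition, so it was subtracted from the mutant counts alone. After the subtraction, Pfkl, Eno1 and Ldha were still called lower and Pfkp higher, with adjusted p between 0.0225 and 0.0256 (edgeR, 17578 genes). The other 6 were not called, and over all genes tested 4.48% were called lower and 18.5% higher. The same 4 genes were called when only the reference genes were tested (0.985% called lower and 2.45% higher). Without mutant 1, edgeR called 0 of the 10 genes, at adjusted p of 0.0505 to 0.212, and 5 of 20924 genes in all (0.0239%), with 8939 genes at an unadjusted p under 0.05. The sign of all 10 fold changes was the same there.

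**Figure D1:**
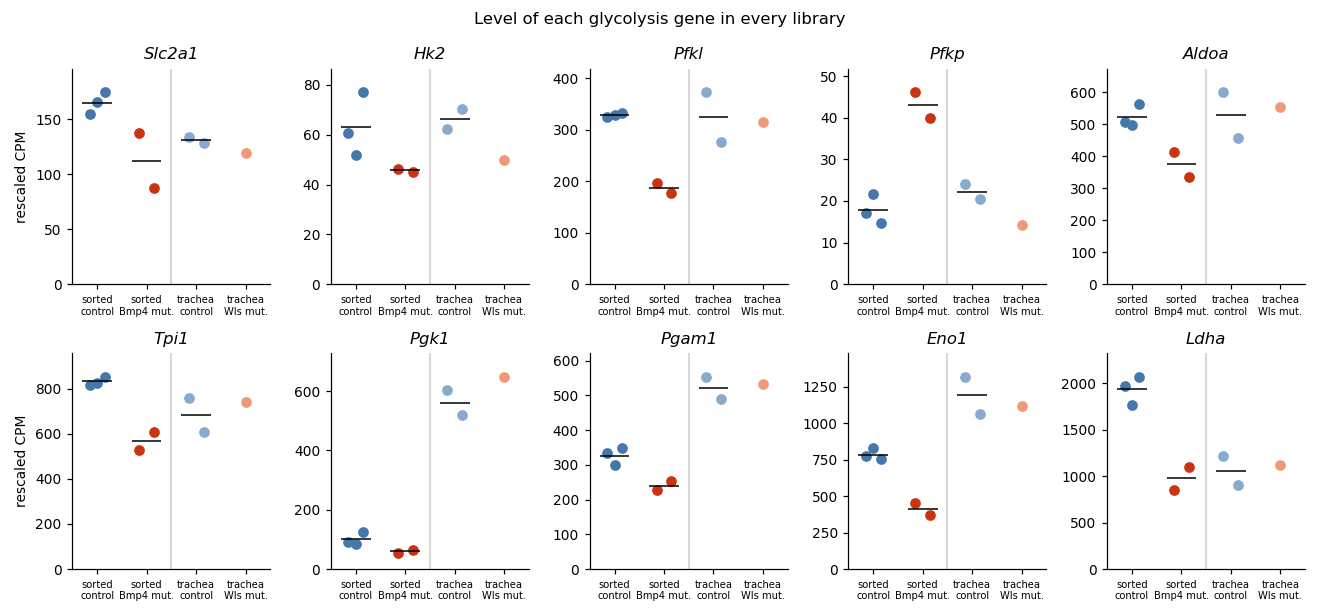
Level of each of the 10 genes in rescaled CPM on a linear axis from 0, with one point per library and a line at the mean of each group with more than 1 library. Sorted cells are left of the grey line and whole tracheas right of it, the 2 tables were made with different kits, and the Bmp4 mutants lie below their controls in all panels but Pfkp.

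The promoters of Pfkl, Pfkp, Eno1 and Ldha, called also after subtraction and among the reference genes alone, are shown because 3 of these genes fell and Pfkp rose. They are the 250 bases before the first-listed transcription start, from RefSeq on the build GRCm38.p6, written 5′ to 3′ on the strand of the gene. Capitals mark ACGTG or GCGTG on either strand, which on the opposite strand reads CACGT or CACGC, and overlapping matches run together.
Pfkl, chr10:78009808-78010057, minus strand: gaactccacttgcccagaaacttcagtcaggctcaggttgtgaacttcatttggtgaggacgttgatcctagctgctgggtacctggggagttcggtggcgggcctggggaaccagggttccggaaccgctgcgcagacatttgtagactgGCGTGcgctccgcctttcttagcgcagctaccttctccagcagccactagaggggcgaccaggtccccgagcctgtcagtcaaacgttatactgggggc
Pfkp, chr13:6648772-6649021, minus strand: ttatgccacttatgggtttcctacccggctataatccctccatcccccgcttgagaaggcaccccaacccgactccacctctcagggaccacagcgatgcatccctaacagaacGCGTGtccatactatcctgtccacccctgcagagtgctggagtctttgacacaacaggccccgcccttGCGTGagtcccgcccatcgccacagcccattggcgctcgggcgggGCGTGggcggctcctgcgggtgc
Eno1, chr4:150236458-150236707, plus strand: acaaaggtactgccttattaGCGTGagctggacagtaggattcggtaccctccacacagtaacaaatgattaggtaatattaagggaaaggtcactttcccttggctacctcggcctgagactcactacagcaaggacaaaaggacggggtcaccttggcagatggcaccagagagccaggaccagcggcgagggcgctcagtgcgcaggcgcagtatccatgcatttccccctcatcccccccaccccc
Ldha, chr7:46845554-46845803, plus strand: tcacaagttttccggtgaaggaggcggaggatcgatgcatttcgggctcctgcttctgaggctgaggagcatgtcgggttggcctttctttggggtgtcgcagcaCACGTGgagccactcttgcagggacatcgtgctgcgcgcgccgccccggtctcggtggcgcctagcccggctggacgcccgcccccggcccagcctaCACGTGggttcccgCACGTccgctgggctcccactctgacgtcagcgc
Pfkl had 1 match, at position -99 from the start, and Eno1 had 1. Pfkp, the gene that rose, had 3, and Ldha had 5, of which 4 were the 2 strands of the palindrome CACGTG, also the binding motif of Myc. Over all listed starts, 9 of the 10 genes had a match and Tpi1 had none, so the share was 90.0%, against 64.3% of 7334 reference genes and 41.5% of 27025 genes in the RefSeq table. These matches are letters in a window, not binding sites. At the first-listed starts their number did not separate the gene that rose from those that fell. At listed start 2, Ldha had 1 match and no CACGTG. Eno1 had 2 matches at listed start 2 and 2 at listed start 3. With these starts Pfkp, at 3, had more matches than Ldha, Eno1 and Pfkl, so the comparison depends on the start chosen.

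Slc2a1 lies on chromosome 4 at 119108711 to 119137983 (mm10, like the positions below). Its product carries glucose across the plasma membrane. It stood at 137 and 87.2 rescaled CPM in the Bmp4 mutants and at 155, 165 and 175 in their controls. Both mutants were below the controls, mutant 2 by more, and the difference did not pass the test (log2 fold change -0.56 ± 0.21, edgeR adjusted p = 0.059). Without mutant 2 the value was -0.27, and without mutant 1 it was -0.92 (edgeR adjusted p = 0.0505). Slc2a3, the gene of the transporter GLUT3, was not among the 10 and rose, from 44.9, 49.8 and 45.6 to 76.7 and 70.1 (0.65 ± 0.14, adjusted p = 0.00666). The ratio of Slc2a1 to Slc2a3 counts was 1.79 and 1.24 in the mutants and 3.44, 3.32 and 3.84 in the controls, so each mutant library had a ratio below every control.

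Hk2 (chromosome 6, 82725025 to 82774454) codes for hexokinase 2, which phosphorylates glucose on entry. Its level was 46.2 and 45.1 rescaled CPM in the mutants and 60.8, 51.7 and 77.3 in the controls. The groups did not overlap, but the controls were spread and the difference did not pass the test (-0.47 ± 0.20, adjusted p = 0.0831). The estimated background made up 24.0% and 16.1% of its mutant counts, the largest share of the 10 genes, and its exons are the longest of them. Hk1, the hexokinase of most adult tissues, stood at 140.0 and 99.2 against 91.1, 94.0 and 76.6 and was not called either (0.45, adjusted p = 0.0759).

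Phosphofructokinase is built from subunits of 3 genes, the liver type Pfkl, the platelet type Pfkp and the muscle type Pfkm, and the first and second moved in opposite directions. Pfkl (chromosome 10, 77986947 to 78010083) fell from 324, 329 and 332 rescaled CPM in the controls to 196 and 176 in the mutants. The controls were close together, at 329 ± 4.19 (SD, n = 3), and lay far above both mutants (-0.82 ± 0.14, adjusted p = 0.00298). Pfkp (chromosome 13, 6579768 to 6648777) rose from 17.1, 21.6 and 14.7 to 46.2 and 40.0, with no overlap (1.28 ± 0.23, adjusted p = 0.00315). Background made up 18.7% and 14.1% of the Pfkp counts in the mutants, and after its subtraction Pfkp was at 45.3 and 39.4 against 17.7, 22.4 and 15.3. Pfkm was between both, at 77.3 and 55.7 in the mutants and 62.8, 74.8 and 69.6 in the controls (-0.06, adjusted p = 0.821). Per kilobase of exon, Pfkl made up 59.0% and 62.9% of the sum of the 3 genes in the mutants and 74.7% to 77.7% in the controls. Pfkp made up 12.1% and 12.4% against 2.96% to 4.25%. Pfkl thus remained the most abundant of the 3 in every library.

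Aldoa (chromosome 7, 126795234 to 126800751) codes for aldolase A, which cleaves fructose 1,6-bisphosphate. It fell from 507, 499 and 565 rescaled CPM to 413 and 336 (-0.48 ± 0.17, adjusted p = 0.045). Tpi1 (chromosome 6, 124810586 to 124814296), the triosephosphate isomerase that interconverts the products of that cleavage, fell from 816, 825 and 853 to 529 and 609 (-0.55 ± 0.16, adjusted p = 0.0241). In both genes the mutants lay below the lowest control, by more than the range of the controls. Both calls were lost after subtraction of the background, at -0.31 (adjusted p = 0.232) and -0.38 (adjusted p = 0.101). Background made up 0.347% to 0.890% of their counts in the mutants. Library sizes were also computed anew from the subtracted counts, and on that scale Aldoa stood at 492 and 382 against 525, 517 and 586.

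Pgk1 (chromosome X, 106187100 to 106203699), the phosphoglycerate kinase of the first step that makes ATP, fell from 91.1, 85.8 and 127 rescaled CPM to 55.0 and 65.4 (-0.75 ± 0.21, adjusted p = 0.0186). Pgam1 (chromosome 19, 41911923 to 41918660), a phosphoglycerate mutase, fell from 333, 299 and 348 to 227 and 254, the smallest change of the 10 genes (-0.44 ± 0.15, adjusted p = 0.0451). The higher Pgam1 mutant, at 254, lay below the lowest control, at 299. Eno1 (chromosome 4, 150236721 to 150248879) codes for alpha-enolase, which makes phosphoenolpyruvate. It fell from 775, 828 and 754 to 452 and 374, far below the lowest control (-0.93 ± 0.17, adjusted p = 0.00326). Aldoa, Tpi1, Pgk1, Pgam1, Eno1 and Ldha have near-identical processed copies elsewhere in the genome that can share their reads, so their levels are uncertain in that respect.

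Ldha (chromosome 7, 46841475 to 46855627) codes for the muscle-type subunit of lactate dehydrogenase and had the highest level of the 10 genes per kilobase in the sorted controls. It fell from 1972, 1761 and 2072 rescaled CPM to 854 and 1102 (-0.98 ± 0.20, adjusted p = 0.00504). Ldhb, the heart-type subunit, fell by as much, from 251, 229 and 297 to 133 and 123 (-1.01 ± 0.17, adjusted p = 0.00269). The ratio of Ldha to Ldhb counts was 6.41 and 8.93 in the mutants and 7.86, 7.68 and 6.97 in the controls, so the groups overlapped and the mean log2 ratio differed by 0.01.

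**Figure D2:**
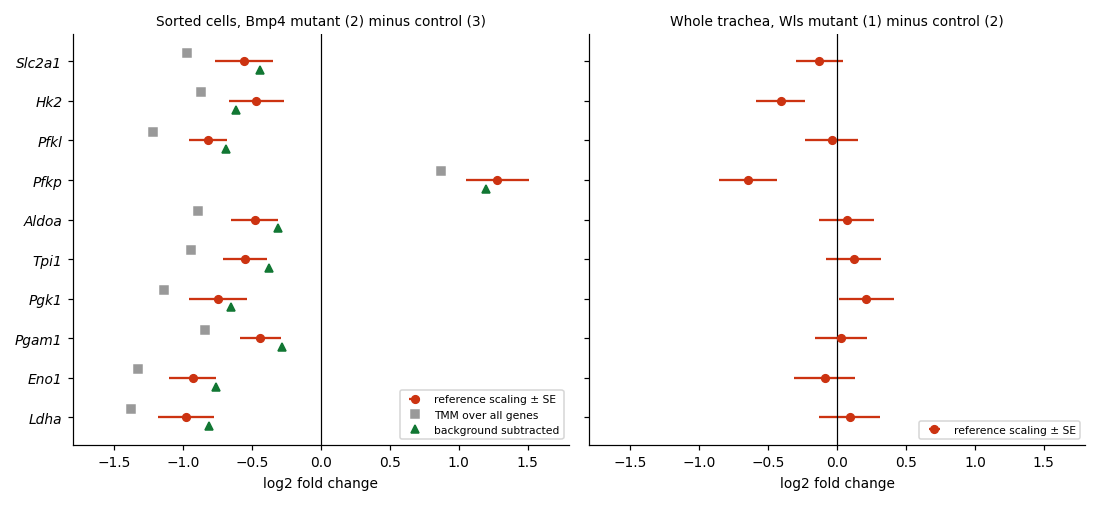
Log2 fold change of each gene, mutant minus control, in sorted cells (left, 2 against 3 libraries) and whole trachea (right, 1 against 2), with bars of 1 standard error. Grey squares show TMM scaling over all genes and green triangles the counts with the background subtracted. The 9 negative genes on the left stay negative and Pfkp positive under both.

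Ratios within a library do not depend on how libraries are scaled. In 4 of 5 isoform ratios the Bmp4 mutants lay outside the controls. For single levels this held for 22.2% of reference genes below and 23.3% above the controls, and no such share was computed for ratios. The differences of mean log2 ratio were -1.24 for Slc2a1 to Slc2a3, -0.89 for Hk2 to Hk1, -0.75 for Pfkl to Pfkm and 1.36 for Pfkp to Pfkm. Each had p = 0.2 in an exact two-sided permutation test, the smallest that 2 against 3 libraries allow, and 0.25 adjusted over the 5 ratios. With the background subtracted these differences were -1.18, -1.12, -0.69 and 1.21.

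**Figure D3:**
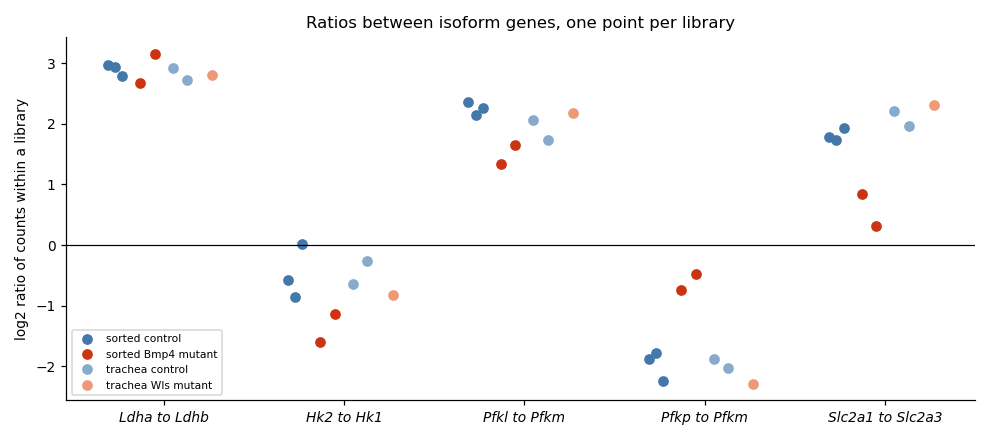
Log2 ratio of the counts of 2 genes within each library, with one point per library for 5 pairs of genes. Bmp4 mutant points lie below their controls for Hk2 to Hk1, Pfkl to Pfkm and Slc2a1 to Slc2a3, above them for Pfkp to Pfkm, and on both sides of them for Ldha to Ldhb.

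Of 26 other glycolysis genes, 17 were reference genes, with a median log2 fold change of -0.06. Of these 17, 4 fell and 5 rose, against 7.55% called lower and 10.3% called higher over all reference genes. The falls were in Ldhb, in Gapdh, in Pkm and in Slc16a3. Gapdh, the dehydrogenase between triosephosphate isomerase and phosphoglycerate kinase, went from 178, 165 and 219 rescaled CPM to 141 and 114 (-0.56 ± 0.18, adjusted p = 0.0377). Pkm, the pyruvate kinase that ends the pathway, went from 1427, 1518 and 1635 to 973 and 887 (-0.71 ± 0.17, adjusted p = 0.0108). Slc16a3, which exports lactate, was at -0.71 (adjusted p = 0.0108). Every mutant value of these 4 genes was below every control. Gpi1, the isomerase after hexokinase, was not called (171 and 114 against 152, 174 and 189, -0.27, adjusted p = 0.316). The rises were in Slc2a3, in Pfkfb2 (1.09), in Pfkfb4 (0.65), in Eno2 (0.94), the neuronal enolase, and in Bpgm. Pfkfb2 and Pfkfb4 set the level of an activator of phosphofructokinase. The background, estimated in the mutants alone, was not subtracted from these values.

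Bpgm, a mutase of red blood cells, stood at 1379 and 126 rescaled CPM in the mutants against 44.8, 84.5 and 93.9 (3.34 ± 0.82, adjusted p = 0.0115). The 9 erythroid markers summed to 154957 rescaled CPM in mutant 1, 1332 in mutant 2 and 30.3 to 9442 in the controls, and were high in the same library as Bpgm. Their part in that result was not tested. The largest fitted changes of this list were in genes near 0 in the controls. Pgk2 had 56 and 72 counts in the mutants and 0 in each control, Ldhc had 57 and 77 against 3, 5 and 0, and Pklr had 216 and 55 against 2, 18 and 11. Genes with 0 counts in every control, such as Pgk2, are those from which the background was estimated.

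Regulators and connected pathways are given first by their reference genes, with no test of one list against another. Their values are also without subtraction of the background. Of 20 reference genes of the hypoxia response, 3 rose and 2 fell, with a median of -0.07. Over all reference genes 10.3% were called higher and 7.55% lower, the share against which these counts and those of the lists that follow stand. Bnip3, a mitophagy receptor, went from 154, 153 and 183 rescaled CPM to 76.4 and 93.5 (-0.94 ± 0.17, adjusted p = 0.00307), and Fam162a was at -0.78 (adjusted p = 0.00292). The carbonic anhydrase Car12 was at 1.37 (adjusted p = 0.0165), with Slc2a3 and Pfkfb4 as the other rises. Car9, below the reference level in the controls, was at 2.74 (adjusted p = 0.00372), among 45.7% of all genes tested that were called higher. Hif1a, the regulated subunit of HIF-1, was at 171 and 231 against 216, 229 and 228 and was not called (-0.16, adjusted p = 0.481). Of 12 HIF and Myc factors among the reference genes, Myc fell (115 and 101 against 175, 187 and 145, -0.64 ± 0.17, adjusted p = 0.0147), Arnt2 fell (-0.58, adjusted p = 0.014) and 0 rose.

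Among 12 reference genes of pyruvate entry into mitochondria, Pdk3 fell (-0.42, adjusted p = 0.0351) and the median was 0.02. Pdk4, at low level, was at 1.95 (adjusted p = 0.0199). Of 16 genes of the tricarboxylic acid cycle, edgeR and limma-voom called 0 and DESeq2 called 5, with 2 at an unadjusted p under 0.05 in edgeR. Both mutants were below every control in 9 of the 16, against 22.2% of all reference genes. The median was -0.21, with a range from -0.40 to 0.35. Of the 6 reference genes of the pentose phosphate pathway edgeR and limma-voom called 0 (0 at an unadjusted p under 0.05 in edgeR) and DESeq2 called 1, and the median was -0.19. Among 11 of the glycogen and serine branches, Psat1 (-0.59), Gys1 (-0.53) and Shmt2 (-0.46) fell, and the median was -0.15. Of the 3 reference genes of gluconeogenesis edgeR, limma-voom and DESeq2 called 0, and 0 had an unadjusted p under 0.05. Its low genes G6pc, Pck1 and Fbp2 were called higher, with G6pc at 75 and 72 counts against 0 in each control, and Pygm, of glycogen breakdown and also low, was at 1.52.

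**Figure D4:**
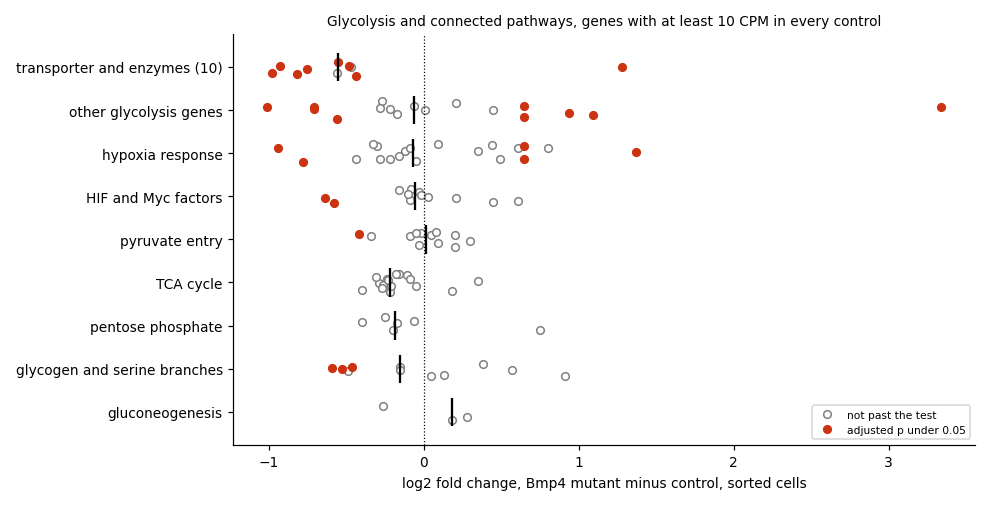
Log2 fold change of each reference gene, Bmp4 mutant minus control in sorted cells, for the 10 genes and 8 lists of connected genes. Filled red points passed the edgeR test, open grey points did not, and black bars mark medians. The median of the 10 genes is -0.55, and those of the other lists lie between -0.21 and 0.18.

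Markers of several cell types differed between the same libraries, and their part in the fall of the glycolysis genes was not tested. In the controls Sox9, a regulator of cartilage, stood at 693 to 1801 rescaled CPM and Col2a1, its main collagen, at 791 to 1412, while Acan was at 1.43 to 21.2 and Matn1, a later marker of cartilage, was near absent at 0 to 0.157. Summed over 9 cartilage markers in the table, the level was 611 and 1309 in the mutants and 2042 to 4076 in the controls. Of the 6 that were reference genes 5 fell, against 7.55% of all reference genes. Of all 9 tested, 1 was called higher, as were 45.7% of all genes tested. Log2 fold changes of the 9 ran from -2.13 to 6.3. Smooth muscle markers summed to 1989 and 278 against 119 to 155, endothelial markers to 259 and 185 against 23.1 to 102, and neural markers to 768 and 784 against 311 to 507. Epithelial markers summed to 110 and 64.8 against 22.9 to 35.6, with Epcam at 7.03 and 8.05 against 0.314 to 2.02 and Krt5 at 0 in each control. Log2 fold changes of the 6 epithelial markers tested ran from -1.85 to 5.81. Leukocyte markers summed to 249 and 182 against 97.6 to 125, and skeletal muscle markers to 121 and 30.2 against 4.59 to 132. Smooth muscle and erythroid genes were far higher in mutant 1 than in mutant 2. The background was not subtracted from any of these marker values. It was estimated at 21.2 and 19.6 counts per kilobase of exon in mutants 1 and 2 and at 0 in the controls. Its part in the marker differences was not tested.

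Over the 8 libraries, with log2 levels centred within each table, 5 genes outside the 10 had the pattern most like the mean of the 10, among 8981 genes ranked. They were Basp1 (r = 0.983), Cct3 (0.977), Rxra (0.976), Zfp503 (0.974) and Tnnc1 (0.973). These values describe 8 points in which the contrast between Bmp4 mutants and controls dominates. Against the mean of the others, Pfkl had the highest r of the 10 genes (0.98), followed by Eno1 (0.94) and Aldoa (0.92), while Hk2 had 0.64 and Pfkp -0.87.

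In whole trachea the Wls mutant was within or close to the range of its controls for most of the 10 genes. With 1 mutant library, assumed by edgeR to vary like the 2 controls, 0 of the 10 genes were called, against 3.25% of 15815 genes tested (514 genes, with 2153 at an unadjusted p under 0.05). Of the 10 genes, 2 (Hk2 and Pfkp) had an unadjusted p under 0.05, and DESeq2 with the same scaling also called 0. By a rule of size without a test, 3 of the 10 were lower (Slc2a1, Hk2 and Pfkp) and 0 higher, and this rule was met downward by 20.2% of genes tested and upward by 19.9%. It asks for a mutant value above or below both controls, at a distance greater than that between them. The median log2 fold change of the 10 was -0.01, the same as over all genes tested, and their summed level was 5221 rescaled CPM in the mutant and 5645 and 4538 in the controls.

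Pfkp was the gene that stood furthest from its controls, at 14.2 rescaled CPM against 24.0 and 20.5 (-0.65 ± 0.21, edgeR adjusted p = 0.0849). Its counts were 345 against 644 and 654. Scaling with RLE size factors brought its adjusted p to 0.0498. Pfkp was thus lower in the Wls mutant trachea and higher in the Bmp4 mutant cells, each against its own controls, and the 2 tables were not tested against each other. Hk2 was at 50.03 against 62.1 and 70.4 (-0.41 ± 0.18, adjusted p = 0.277), and Slc2a1 at 119.5 against 134 and 129 (-0.13 ± 0.17, adjusted p = 0.804).

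Of the remaining 7 genes, Pgk1 alone lay outside the range of its controls, at 649 against 604 and 519, by less than the controls differed (0.21 ± 0.20, adjusted p = 0.711). Pfkl was at 316 against 374 and 276, Aldoa at 555 against 602 and 458, and Tpi1 at 742 against 756 and 607. Pgam1 was at 532 against 554 and 489, Eno1 at 1118 against 1321 and 1063, and Ldha at 1125 against 1214 and 907. In these 6 genes the mutant was between its controls, with control 1 above and control 2 below it. The log2 fold changes of the 6 ran from -0.09 for Eno1 to 0.12 for Tpi1, with standard errors of 0.19 to 0.22.

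The isoform ratios in the trachea are given without a test. Ldha to Ldhb was 6.99 in the mutant, between the 7.58 and 6.62 of its controls. Hk2 to Hk1 was 0.568 against 0.636 and 0.833, and Slc2a1 to Slc2a3 was 4.95 against 4.61 and 3.89, both outside the range of the controls. Pfkl made up 76.2% of the phosphofructokinase sum per kilobase against 73.9% and 69.4%, and Pfkp 2.98% against 4.12% and 4.47%. Pfkp thus had the smallest share in the mutant, on counts that are the lowest of the 10 genes.

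Of 17 other glycolysis genes among the reference genes of the trachea, edgeR and DESeq2 called 0, with 2 at an unadjusted p under 0.05 in edgeR. Among connected genes, 3 were called, and they are named after their values were seen. The lists held 20 reference genes of the hypoxia response, 13 HIF and Myc factors and 12 genes of pyruvate entry. Further lists held the tricarboxylic acid cycle (16), the pentose phosphate pathway (7), the glycogen and serine branches (12) and gluconeogenesis (3). Some genes, such as Egln3, are in more than 1 list. Over all genes tested 3.25% were called, and the 3 calls are not shown to exceed that share. Egln3, a prolyl hydroxylase that marks HIF-1 for destruction, was at 60.1 rescaled CPM against 34.9 and 35.7 (0.77 ± 0.17, adjusted p = 0.00552). Pygl, a glycogen phosphorylase, was at 62.3 against 38.7 and 34.1 (0.78 ± 0.17, adjusted p = 0.00528). Myc was at 37.3 against 64.8 and 64.6 (-0.79 ± 0.18, adjusted p = 0.00617). Myc was therefore lower in the mutants of both tables. Cartilage markers summed to 538 rescaled CPM in the Wls mutant against 1358 and 1180, and endothelial markers to 275 against 348 and 405. Smooth muscle markers summed to 2748 against 1984 and 1664, and skeletal muscle markers to 193 against 71.9 and 56.1. Epithelial markers summed to 726 against 555 and 468. Of these 8 epithelial markers, 5 were above both controls and 3 below, with log2 fold changes from -1.34 to 0.98. The part of these differences in the levels of the glycolysis genes was not tested.

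Per kilobase of exon, the order of the 10 genes in the sorted controls was Ldha (929 to 1093 rescaled CPM per kilobase), Tpi1 (508 to 531), Eno1 (372 to 408), Aldoa (274 to 310), Pgam1 (169 to 196), Pfkl (86.9 to 89.1), Pgk1 (47.0 to 69.3), Slc2a1 (47.4 to 53.6), Hk2 (9.38 to 14.0) and Pfkp (3.43 to 5.03). Neighbours in this order did not overlap except Pgk1 and Slc2a1. The uncertainty from reads shared with processed copies, given above, applies to this order and to that of the tracheas. In the trachea controls Eno1 (652 and 524) and Ldha (641 and 478) stood at the top with overlapping values, followed by Tpi1 (470 and 378). Pgk1 (331 and 284), Pgam1 (312 and 276) and Aldoa (330 and 251) came next and overlapped each other. Pfkl (100.2 and 74.1), Slc2a1 (41.1 and 39.5), Hk2 (11.3 and 12.8) and Pfkp (5.59 and 4.77) came last, each apart from the next. The transporter, hexokinase 2 and the platelet-type phosphofructokinase were thus at the low end in both kinds of sample.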

How the data were processed

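Whole-number counts per gene were used as the authors deposited them, in 1 table for the 5 sorted libraries and 1 for the 3 tracheas. Per the labels' protocols, Trizol was used for the RNA, the SMART-Seq v4 kit for amplifying that of sorted cells, the Ovation RNA-Seq System v2 for that of tracheas, and Nextera XT for the libraries. Tools in the submitters' processing notes are Trim Galore (sorted cells), Bowtie2, Cufflinks and DESeq, with the build mm10. The counter, its use of strand and its gene models (not given in the sources used here) leave overlapping antisense genes that cannot be told apart. Because the kits differ, each table was fitted alone. The driver of the Cre in the sorted mutants is not reported here.

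The test was that of edgeR 4.0.16 in R 4.3.3 (quasi-likelihood F test, default expression filter, Benjamini-Hochberg adjustment over all genes tested, threshold 0.05). Library sizes were the summed counts of reference genes, adjusted by TMM on them. The standard error was the log2 fold change divided by the square root of F. Alternatives used TMM or RLE over all genes, DESeq2 1.42.0, limma 3.58.1 (voom), other filters and a subtracted background, whose rate per kilobase came from genes with 0 counts in every control. Exon lengths were taken from GENCODE M21, which matched 22114 of 23478 symbols (94.2%), and promoters from RefSeq. The rule of size used a prior count of 2. The fits were tested on simulated data. Reads carry no molecular identifiers, so counting error understates the error of a value.

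The 10 genes, the other gene lists and the rule for named genes were chosen with earlier results of these data known. The 10 genes and Hk1, Gpi1, Pfkm, Gapdh, Pkm, Ldhb and Slc2a3 are named whatever their values. Of each other list, up to 3 called genes per direction are named by size of change in the sorted cells, other called genes of glycolysis and low genes are named after their values were seen, and marker lists are given as sums. Replicate numbers 1 and 2 of the sorted groups share only a label.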

Additional observations from a re-analysis of the deposited data

How the results depend on the processing

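In the sorted cells 10645 genes and 8 of the 10 glycolysis genes were called. With only the reference genes tested these counts were 331 and 4, with the background subtracted 4043 and 4, and with reference genes at 50 CPM 11173 and 5. Those gene counts were 3.43%, 23.0% and 51.4% of the genes tested in each setting. Leaving out 1 library each gave 5 to 9652 genes and 0 to 5 of the 10. The 5 and the 0 came without mutant 1, and 6355 genes without mutant 2. TMM over all genes called 10 of the 10, and it moved the median change over all genes (log2) from 0.93 to 0.53 and the split of calls from 9904 higher and 741 lower to 8507 and 3381. DESeq2 called 9 of the 10 and voom 7. Of 160 values of single genes under 16 alternatives, 0 changed sign, 37 lost their call and 5 gained one. Pfkl, Pfkp and Eno1 were called under 15 of 16, the exception being the fit without mutant 1, and Hk2 under 2. The 5 isoform ratios of the sorted cells kept their direction with the background subtracted.

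In the tracheas 514 genes were called, 338 with only the reference genes tested and 264 with DESeq2. Of the 10 genes 0 were called, and 1 (Pfkp) with RLE size factors. Without a control, 1 library stood against 1, so neither a test nor the rule of size could be applied.

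With the replicate number as a block, which covers numbers 1 and 2, edgeR called 4144 genes (19.1%) and 3 of the 10 (Pfkl, Pfkp and Eno1). Deviations of same-numbered libraries had r = -0.17 and -0.10, so the numbers were not treated as pairs. No paired analysis was possible for the tracheas because the mutant is a single library.

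Depth limits the Bmp4 mutants most, whose totals are far below those of their controls, and a single library decided whether the adjusted p passed.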

Other observations

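Gapdh and Pgk1 stood at different levels in the 2 kinds of sample. Gapdh was at 165 to 219 rescaled CPM in the sorted controls and at 2397 and 1982 in the trachea controls. Pgk1 was at 85.8 to 127 and at 604 and 519. Aldoa was at 499 to 565 and at 602 and 458. The tables come from different kits and cells and were not tested against each other. Reads shared with processed copies, as stated above for Pgk1 and Aldoa, also make their levels uncertain.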
